A study of Mus musculus with 11 samples.

Results

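Of 24430 stretches of acetylated chromatin in mouse CD4+ CD8+ thymocytes, 947 had a peak in both wild-type (WT) libraries and in exactly 1 of the 2 libraries from Rad21-deleted (KO) cells. These 947 regions were selected on the peak calls themselves, so their calls, lengths and scores are given as a description and carry no test. They made up 3.88% of all regions and 6.94% of the 13645 regions with a peak in both WT libraries. A peak was missing from KO replicate 2 at 654 of them and from KO replicate 1 at 293. They were therefore regions with a KO call in 1 replicate and none in the other, and a missing call is not a measured absence of acetylation.

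Acetylated lysine 27 of histone H3 (H3K27ac) marks active promoters and enhancers, and dense groups of such elements are found near genes that define a cell's identity. Smc1a is one of the long arms of the ring-shaped cohesin complex, and Rad21 is the kleisin that shuts this ring. Cohesin extrudes chromatin loops and can bring enhancers near their promoters, often stopping where the DNA-binding protein CTCF sits. CD4+ CD8+ thymocytes are the immature T cells in which the T cell receptor alpha chain is rearranged and tested.

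The KO mice carried a floxed Rad21 allele and a Cre transgene under Cd4 control, a promoter that becomes active around the CD4+ CD8+ stage, and the labels give the genotype as Rad21 -/-. The controls were littermates labelled wild type, and all mice were 6 weeks old. Cells were sorted by flow cytometry, and chromatin immunoprecipitation with sequencing was done for H3K27ac in 2 KO and 2 WT libraries and for Smc1a in 2 WT libraries. The labels leave unsaid whether the replicates of a genotype were taken from different mice, how completely the Rad21 protein had been lost in the sorted cells, or the sex of the mice. The KO lists held 19503 and 20244 H3K27ac peaks and the WT lists 21973 and 15686, covering 52.7 and 47.6 Mb in KO and 56.3 and 45.6 Mb in WT. Peaks on chromosome Y were listed in KO replicate 2 and in WT replicate 2 (4 each), and none in KO replicate 1 or WT replicate 1. The Smc1a lists held 25484 and 17726 peaks, which shared 14848 reproducible sites, that is merged stretches with a peak of both replicates. Positions are on build mm9, counted from 1, and neither gene names nor a check of cell type markers is given, since no mm9 annotation was used here.

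The number of regions missing from a single library differed between the replicates of both genotypes. Of the regions with a peak in the other 3 libraries, KO replicate 1 lacked 2.36% (293 of 12422) and KO replicate 2 lacked 5.12% (654 of 12783). WT replicate 1 lacked 2.32% (288 of 12417) and WT replicate 2 lacked 19.4% (2924 of 15053). The loss from KO replicate 1 alone was thus close in number to the loss from WT replicate 1 alone, and the loss from KO replicate 2 alone lay between those from the WT replicates. The reverse pattern, a peak in both KO libraries and in exactly 1 WT library, was found at 3212 regions (13.1% of all). The list of WT replicate 2 was the shortest of the 4, and without it the regions with a WT peak and exactly 1 KO peak numbered 2494.

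**Figure D1:**
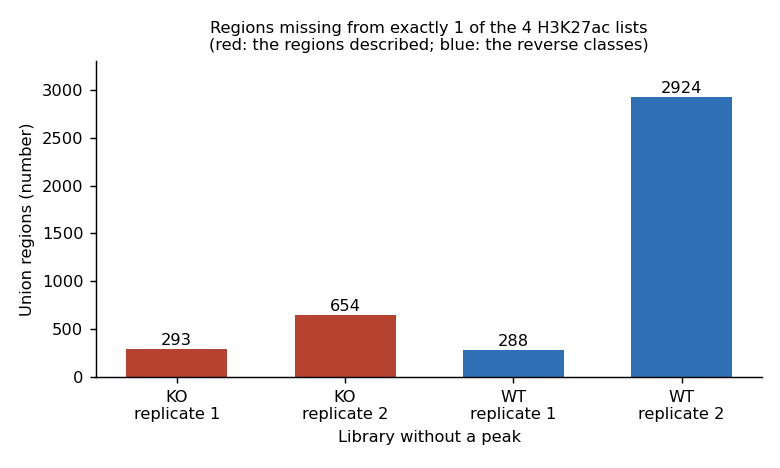
Number of union regions (vertical axis) without a peak in exactly 1 of the 4 H3K27ac lists, by the library without a peak (horizontal axis), each bar being 1 count. The 293 and 654 regions missing from a KO library are the ones described, beside 288 and 2924 for the WT libraries.

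The regions were short and ranked low in every list that held them. Their median length was 1857 bp, against 2922 bp for the 12129 regions held by all 4 libraries, and 83.7% of them were 1000 to 3000 bp long, against 51.7%. Short length was not particular to them. Regions of both WT libraries and no KO library had a median of 1667 bp (85.6% at 1000 to 3000 bp). Those of the reverse pattern had a median of 1970.5 bp (88.6%). A peak's score is the authors' own value, and its percentile is its rank within its list. Regions missing from KO replicate 1 had a median percentile of 17.2 in KO replicate 2, against 31.4 in WT replicate 1 and 22.2 in WT replicate 2. Regions missing from KO replicate 2 had a median percentile of 19.2 in KO replicate 1, against 34.2 in WT replicate 1 and 24.7 in WT replicate 2. In the KO library that held the region, the median score was 83.8 in KO replicate 2 and 91.6 in KO replicate 1, in lists that begin at 50. Scores there ran as low as 50.05 and 50.01 and as high as 690.56 and 497.28. The remaining KO peak scored below 60 at 57 of the 293 regions (19.5%) and at 94 of the 654 (14.4%). It reached the upper 50% of its list at 9 of 293 and at 18 of 654. Both WT peaks were in the upper 50% of their lists at 48 of the 947 regions (5.07%), compared with 57.3% of the regions held by all 4 libraries. Low rank was shared by the like classes. Regions in no KO library had median percentiles of 21.6 in WT replicate 1 and 17.6 in WT replicate 2. Those of the reverse pattern had medians of 21.9 (WT replicate 2) to 35.7 (KO replicate 2).

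**Figure D2:**
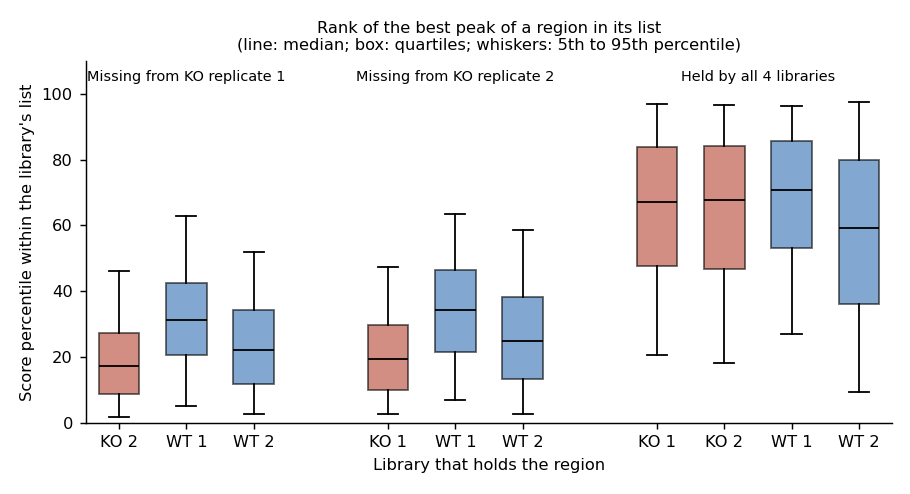
Score percentile of a region's best peak within its own list (vertical axis) for each library that held the region (horizontal axis), in regions missing from KO replicate 1, missing from KO replicate 2 and held by all 4 libraries. Lines are medians, boxes quartiles and whiskers the 5th to 95th percentiles. The remaining KO library had the lowest median in both of the first groups (17.2 and 19.2).

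Regions with a peak in exactly 1 KO library were concentrated among weak and short WT regions by the same calls that chose them. Among regions of both WT libraries with a mean WT score percentile below 10, 58 of 211 (27.5%) had a peak in exactly 1 KO library and 88 (41.7%) in none. From percentile 20 to 30, 267 of 1232 (21.7%) were in 1 KO library and 12.3% in none. From 40 to 50 these shares were 7.48% and 1.89%, and from 80 upwards 0.0900% for each (3 of 3332). By length, 23.9% of regions of 1000 to 1500 bp were in exactly 1 KO library, against 0.646% of those of 5000 bp or more. Below 1000 bp the share was lower than at 1000 to 1500 bp, at 18.9% (21 of 111). Regions missing from KO replicate 2 outnumbered those missing from KO replicate 1 in each of the 7 bands below percentile 80, by the smallest ratio at percentiles 10 to 20 (115 against 67) and the highest at 60 to 80 (22 against 4), with no steady order between. From 80 upwards there were 1 and 2.

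Where 1 KO library kept a peak, it often covered less of the region than the WT libraries did. KO replicate 2 covered 60.1% of the bases of the 293 regions it kept, against 87.9% in WT replicate 1 and 85.6% in WT replicate 2. KO replicate 1 covered 73.1% of the bases of its 654 regions, against 87.9% and 83.1% in the WT replicates. The covered length in KO replicate 2 was below that of both WT libraries at 210 of 293 regions (71.7%), and at 50.3% of regions held by all 4 libraries. For KO replicate 1 it was below both at 313 of 654 (47.9%), and at 28.9% of regions held by all 4. The median ratio of covered length to the WT mean was 0.748 for KO replicate 2 and 0.914 for KO replicate 1. In regions held by all 4 libraries those ratios were 0.945 and 1.02. Each KO library was thus narrower at the regions that the other one lacked than at shared regions, and these ratios are of the same calls that chose the regions.

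The library without a peak had its nearest one 18 to 798697 bp away. The distances are to peaks of the list whose missing call chose the region, and are given as a description. Its nearest peak lay at a median distance of 7101 bp for regions missing from KO replicate 1 and 6996 bp for regions missing from KO replicate 2. Within 10000 bp there was such a peak for 566 of the 947 regions (59.8%), and for 152 (16.1%) there was one on both sides. The share within 10000 bp was 49.8% with equal numbers of peaks per list and 49.3% with peaks within 1000 bp merged. The spacing of peaks over all regions was not set beside these distances. Within 1000 bp there was a peak of the library without a call for 129 regions (13.6%). Whether that peak was also called in WT was not examined. Regions missing from a WT library alone lay farther from its peaks, with medians of 14801 bp for WT replicate 1 and 25538 bp for WT replicate 2. Of those, 42.0% and 29.1% had a peak of the lacking library within 10000 bp. At the other end, 47 of the 947 regions were more than 100000 bp from any peak of the library that lacked them.

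**Figure D3:**
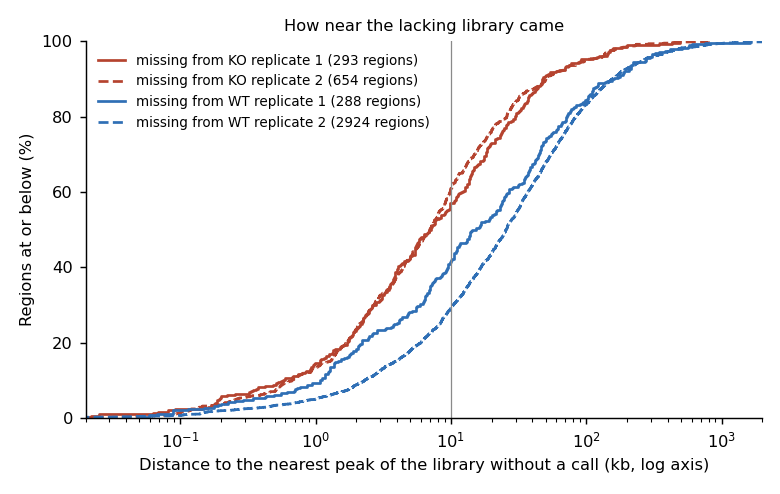
Cumulative share of regions (vertical axis, percent) by distance to the nearest peak of the library without a call (horizontal axis, kb on a log axis). Red lines are regions missing from KO replicate 1 (solid) or 2 (dashed), blue lines those missing from WT replicate 1 (solid) or 2 (dashed), and the grey line marks 10 kb. At that distance the red lines are at 57.0% and 61.0% and the blue lines at 42.0% and 29.1%.

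Some regions at the edge of the rule lay within a few bases of a peak of the library that lacked them. On chromosome 7, the region from 106982579 to 106983642 (1064 bp) ended 20 bp before a peak of KO replicate 1, which did not hold it. On chromosome 8, the region from 108622957 to 108624478 (1522 bp) lay 18 bp from a peak of KO replicate 2. On chromosome 14, a region of 3293 bp from 79687988 to 79691280 was 22 bp from a peak of KO replicate 1, and on chromosome 1 a region from 60150839 to 60153143 was 30 bp from one of KO replicate 2. Just outside the rule were long regions that a KO library still touched. The region of chromosome 1 from 43534093 to 43547332 (13240 bp) was held by KO replicate 2 with 665 bp (5.02%), beside 5814 bp in KO replicate 1 and 12285 and 11553 bp in the WT libraries. On chromosome 16, KO replicate 1 covered 1901 bp of the 9757 bp from 92722010 to 92731766, and KO replicate 2 1189 bp, against 5466 and 8729 bp in the WT libraries. In bases, the smallest overlaps were 356 bp in KO replicate 1 (chromosome 4 from 132652613 to 132652982) and 356 bp in KO replicate 2 (chromosome 3 from 33918886 to 33919401), both in regions of at most 516 bp.

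The longest regions missing from KO replicate 1 were WT stretches of which KO replicate 2 kept a small part. The longest of all spanned chromosome 11 from 68020415 to 68030523 (10109 bp). KO replicate 2 covered 964 bp of it with a score of 66.3, and the WT libraries covered 10053 and 9891 bp with scores of 916.88 and 232.01. A peak of KO replicate 1 ended 333 bp before it. The next, on chromosome 5 from 115604121 to 115611990 (7870 bp), differed from the rest of the 8 longest in that KO replicate 2 kept most of it. KO replicate 2 covered 6922 bp there with a score of 690.56, the highest of any KO peak in the 947 regions, against 7472 and 6819 bp with scores of 1606.08 and 1206.32 in the WT libraries. On chromosome 16 from 96066067 to 96072040 KO replicate 2 covered 941 bp, against 3959 and 5974 bp in the WT libraries. On chromosome 7 from 121424396 to 121430074 it covered 1271 bp, against 4453 and 5529 bp, and the region overlapped a Smc1a site. The other 4 lay on chromosomes 6, 11, 3 and 1, were 4354 to 4935 bp long, and had 820 to 1039 bp left in KO replicate 2. All 8 lay in a WT cluster, that is among 3 or more regions of both WT libraries at most 12.5 kb apart, and within 5460 bp of a peak of KO replicate 1, and 3 overlapped a Smc1a site.

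The longest regions missing from KO replicate 2 kept more of their length in the other KO library. On chromosome 5 from 136867266 to 136874656 (7391 bp) KO replicate 1 covered 3388 bp with a score of 63.5, against 7327 and 6743 bp with scores of 378.65 and 75.4 in the WT libraries. On chromosome 8 from 114138131 to 114144682 (6552 bp) KO replicate 1 covered 5015 bp, against 5022 and 5368 bp in the WT libraries, so that the KO call there was about as wide as the WT calls. On chromosome 5 from 138122338 to 138128692 (6355 bp) it covered 4507 bp with a score of 279.99, against 6355 and 5962 bp with scores of 1140.06 and 676.41. On chromosome 18, KO replicate 1 covered 2404 bp of the 6835 bp between 61017762 and 61024596, against 6755 and 6183 bp in the WT libraries, and the region held 2 Smc1a sites. None of the other 7 overlapped one. The other 4, on chromosomes 11, 14, 2 and 5, were 5438 to 5751 bp long with 1289 to 3118 bp left in KO replicate 1. Of the 8, 7 lay in a WT cluster and 7 within 10000 bp of a peak of KO replicate 2.

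The regions with the strongest WT peaks were few. By mean WT percentile the first was on chromosome 1 from 16293074 to 16295598 (2525 bp), with a score of 169.53 in KO replicate 2, against 1760.51 and 1217.66 in the WT libraries. The nearest peak of KO replicate 1 was 42008 bp away. Regions on chromosome 7 from 73036977 to 73038540 and on chromosome 16 from 36770267 to 36771365 were compact and stood 76615 and 50177 bp from a peak of KO replicate 1. Their scores in KO replicate 2 were 313.41 and 226.98, against WT scores of 697.59 and 578.94 on chromosome 7 and 417.96 and 537.09 on chromosome 16. The chromosome 11 and chromosome 5 regions of 10109 and 7870 bp completed the first 5. Among regions missing from KO replicate 2, the first lay on chromosome 14 from 17025419 to 17030044 (4626 bp) and overlapped a Smc1a site. It scored 119.32 in KO replicate 1, against 1954.56 and 677.87 in the WT libraries. On chromosome 6 from 8342289 to 8346193 the score was 167.33 in KO replicate 1, against 1757.5 and 437.19 in the WT libraries, again with a Smc1a site. On chromosome 9 from 72181673 to 72185599 and on chromosome 15 from 95606758 to 95610128 the scores in KO replicate 1 were 247.72 and 386.68. WT scores were 482.14 and 1245.37 on chromosome 9 and 390.31 and 788.93 on chromosome 15. The fifth was the chromosome 5 region of 6355 bp. Scores from different lists are not on a common scale, so no order of libraries is read from them. The choice by WT percentile favours a higher rank in WT at these 10 regions.

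Smc1a, which the choice of regions did not use, was found at 118 of the 947 regions (12.5%, 95% Wilson interval 10.5 to 14.7). Over all 24430 regions the share was 14.0%, and in regions held by all 4 libraries it was 20.3% (19.6 to 21.1). The difference from regions of all 4 libraries was -7.88 percentage points (Newcombe 95% interval -9.96 to -5.51), and the share was lower on 19 of 20 chromosomes. Among regions of 1000 to 3000 bp the difference was -0.221 points (-2.32 to 2.22), with 10.5% against 10.7%. At a mean WT score percentile of 10 to 40, a band chosen after seeing the data, it was 1.46 points (-1.01 to 4.28). For a site within 10000 bp the difference was -1.07 points (-4.31 to 2.22) over all lengths, 5.08 (1.53 to 8.72) at 1000 to 3000 bp and 6.75 (2.60 to 11.0) at a percentile of 10 to 40, so the direction depended on distance and on the regions compared. With the peaks of Smc1a replicate 1 alone the difference was larger, at -14.6 points (-17.1 to -11.9) over all lengths and -4.54 points (-7.22 to -1.59) among regions of 1000 to 3000 bp. Replicate 2 alone gave -8.74 points (-11.1 to -6.14) and -0.230 points (-2.63 to 2.48). At a percentile of 10 to 40 replicate 1 gave -2.68 points (-5.81 to 0.715) and replicate 2 gave 2.22 points (-0.545 to 5.30). The 569 regions called in both WT and neither KO library had a share of 12.1%, and the 947 regions were 0.334 points higher (-3.20 to 3.65). For a site within 10000 bp the 947 regions were below them, with 42.8% against 49.2%, a difference of -6.44 points (-11.6 to -1.27). Intervals treat regions as units and cover counting error only, so they measure no spread between mice.

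Regions missing from one KO library and from the other were set side by side for Smc1a. A reproducible site overlapped 33 of the 293 regions missing from KO replicate 1 (11.3%, 8.13 to 15.4) and 85 of the 654 missing from KO replicate 2 (13.0%, 10.6 to 15.8), a difference of -1.73 points (-5.93 to 3.03). Against the peaks of Smc1a replicate 1 alone the shares were 19.1% and 19.3%, and against those of replicate 2 alone 12.6% and 17.9% (difference -5.26 points, -9.82 to -0.165). Where peaks had to cover 50% of a region to hold it, the difference was -8.27 points (-12.2 to -3.53). Without WT replicate 2 it was -2.46 points (-4.67 to -0.163). Inside WT clusters the difference was 2.94 points (-4.54 to 11.8), and outside them -4.44 points (-9.22 to 1.17). Its sign, and whether its interval excluded 0, thus depended on the lists, the regions and the rule used. In both groups the regions with a site were longer, with medians of 2535 and 2348 bp, than those without one, with medians of 1716 and 1878 bp.

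Smc1a sites were more frequent at the 947 regions than at the 3212 regions of the reverse pattern, where 6.63% (5.82 to 7.54) overlapped one. The difference was 5.83 points (3.67 to 8.23) over all lengths and 4.60 points (2.45 to 7.06) among regions of 1000 to 3000 bp, and the share was higher on 18 of 20 chromosomes. Measured on the peaks of Smc1a replicate 1, the difference came to 1.82 points (-0.924 to 4.74), and on those of replicate 2 to 8.29 points (5.87 to 10.9). Regions of the reverse pattern cannot lie in a WT cluster by definition. Outside WT clusters the difference was 4.06 points (1.59 to 7.01). There it was -0.469 points (-3.65 to 3.09) on Smc1a replicate 1 and 5.40 points (2.65 to 8.59) on replicate 2. Most regions of the reverse pattern were missing from WT replicate 2. Of those, 6.57% overlapped a site, and of those missing from WT replicate 1, 7.29%. Leaving out WT replicate 2 changed both classes. They became regions of WT replicate 1 and exactly 1 KO library, and regions of both KO libraries without a WT replicate 1 peak. The difference between them was 2.64 points (0.625 to 4.45). The part played by a single library in the difference from the reverse pattern was not tested.

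The 947 regions lay more often in clusters of acetylated regions, by the same H3K27ac calls that chose them, so the shares are given as a description. Regions of both WT libraries were stitched where at most 12.5 kb apart, and groups of 3 or more were called WT clusters. These clusters held 30.3% of all regions of both WT libraries. Of the 947 regions, 386 (40.8%) lay in a cluster, against 28.6% of regions held by all 4 libraries, a difference of 12.1 points. Among regions of 1000 to 3000 bp it was 17.4 points, and at a mean WT percentile of 10 to 40 it was 15.0 points. It was 6.23 points with peaks within 1000 bp merged, 7.87 points with equal numbers of peaks per list and 5.61 points without WT replicate 2. The share was 49.6% for regions in no KO library, so it ran from none, to 1, to both KO libraries as 49.6%, 40.8% and 28.6%. With clusters built from regions of any 2 or more libraries, chosen after seeing the data, 47.6% of the 947 regions were clustered, against 36.8% of regions held by all 4 and 22.2% of the reverse pattern. The share in WT clusters was 37.9% for regions missing from KO replicate 1 and 42.0% for those missing from KO replicate 2, a difference of -4.16 points.

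**Figure D4:**
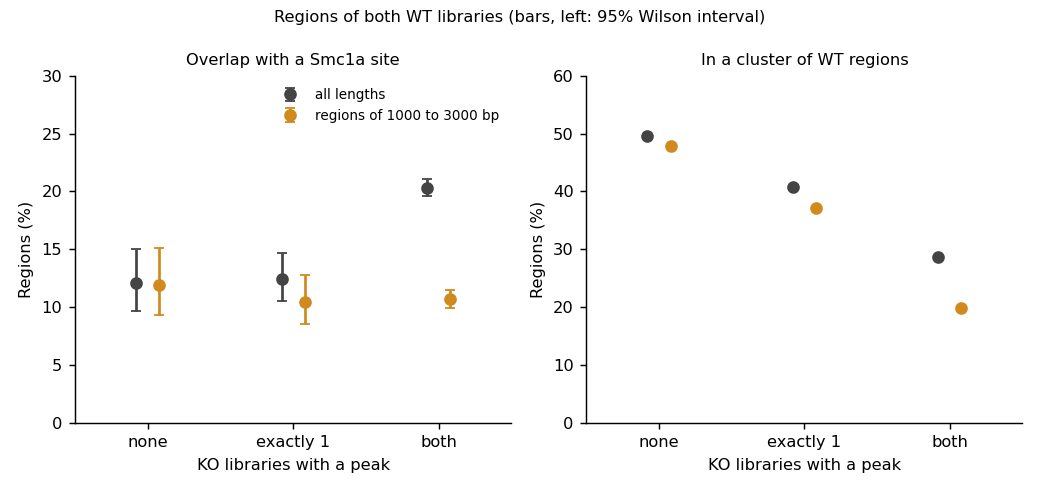
Share of regions of both WT libraries (vertical axes, percent) that overlapped a reproducible Smc1a site (left) or lay in a WT cluster (right), by the number of KO libraries with a peak (horizontal axis), for all lengths (dark) and for 1000 to 3000 bp (orange). Points are shares and bars, for Smc1a alone, 95% Wilson intervals. Over all lengths the cluster share is 49.6%, 40.8% and 28.6% from left to right, and the Smc1a share 12.1%, 12.5% and 20.3%.

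Most clusters that held such a region held exactly 1. Of 1003 WT clusters, 306 (30.5%) held at least 1 of the 947 regions, 245 of them exactly 1, 48 of them 2, 9 of them 3 and 4 of them 4 or more. In 228 of the 306 every other region was held by all 4 libraries, and in 78 there was also a region in no KO library. Of the 61 clusters with 2 or more, 35 had all of them missing from KO replicate 2, 7 had all missing from KO replicate 1 and 19 had some of each. Neighbours were classed by the same calls that chose the regions, so their shares are a description. Within 12.5 kb, 9.91% of the neighbours of regions missing from KO replicate 2 (56 of 565) were also missing from KO replicate 2 alone. The share was 5.64% beside regions held by all 4 libraries and 8.98% beside regions in no KO library. For KO replicate 1 these shares were 4.39% (10 of 228), 2.33% and 4.23%, in that order. A pair of neighbours of the same class was counted from both sides. Of the neighbours of regions missing from KO replicate 2 or replicate 1, 79.6% and 81.6% were held by all 4 libraries. Both shares were below the 86.9% among neighbours of regions held by all 4 libraries and above the 72.4% among neighbours of regions in no KO library.

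The cluster with most of them lay on chromosome 5 from 136854959 to 137051427 and had 19 regions, of which 6 were missing from KO replicate 2, 3 were in no KO library and 10 were held by all 4. Besides the 7391 bp region given above, KO replicate 1 kept 3573 bp of the region from 137013644 to 137017375, against 3671 and 2977 bp in the WT libraries. Its score there was 127.56, against 457.19 and 204.45 in the WT libraries. At the region from 136989306 to 136993123 it kept 2032 bp, against 3787 and 3646 bp. The smallest of the 6, from 137018390 to 137019418, was covered over 867 bp in KO replicate 1 and 929 and 1028 bp in the WT libraries. None of the 6 overlapped a Smc1a site. The cluster held 12 sites, and the nearest to each of the 6 was 1575 to 12967 bp away. Of the 386 regions of this kind in WT clusters, 58 (15.0%) overlapped a site.

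**Figure D5:**
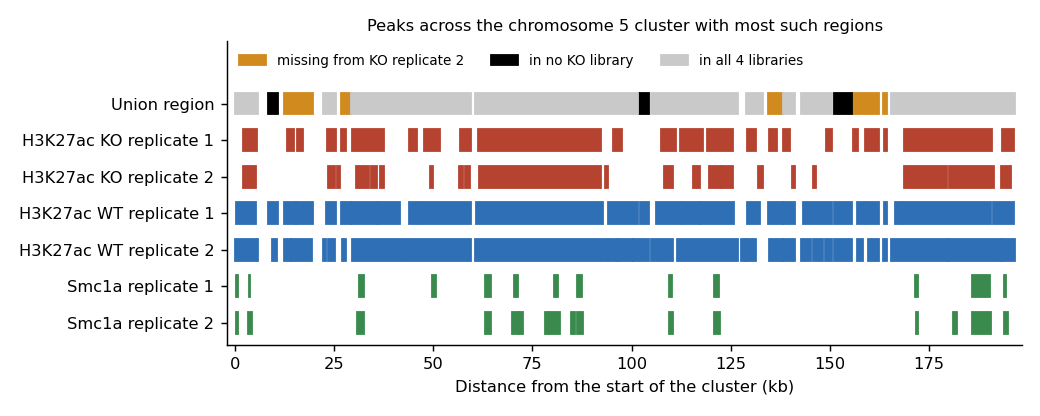
Peaks of each library (rows) along the chromosome 5 cluster with most regions of the kind described, by distance from its start (horizontal axis, kb). The top row marks 6 regions missing from KO replicate 2 (orange), 3 in no KO library (black) and 10 held by all 4 libraries (grey). In KO replicate 1 the orange regions hold a partial or whole peak and in KO replicate 2 none.

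Between 91590655 and 91685686 on chromosome 13, 14 regions formed a cluster with 4 of them, 3 missing from KO replicate 2 and 1 from KO replicate 1. Its region from 91612745 to 91616052 was wider in KO replicate 1 (2218 bp) than in the WT libraries (1507 and 792 bp). On chromosome 19, 4 of the 6 regions from 41086144 to 41134994 were missing from KO replicate 2 and 1 was held by all 4 libraries. In that cluster the region from 41125577 to 41129263 overlapped a Smc1a site and scored 60.6 in KO replicate 1, against 511.24 and 60.5 in the WT libraries. The chromosome 15 cluster between 34818715 and 34863998 (9 regions) had 2 missing from each KO library, with scores of 50.9 and 55.3 in KO replicate 1 and 52.6 and 55.3 in KO replicate 2, all near the bottom of those lists. WT scores at these 4 regions ran from 107.5 to 442.46. The cluster of chromosome 5 from 66213444 to 66350634 was rich in cohesin, with 30 Smc1a sites over 10 regions, and 2 of its 3 regions missing from KO replicate 2 overlapped a site. The third, from 66331103 to 66333444, was covered over 2276 bp in KO replicate 1, more than the 1765 and 1835 bp in the WT libraries.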

How the data were processed

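Peak lists of 4 H3K27ac and 2 Smc1a libraries were analysed, and the 5 input libraries were not analysed here. The submitters' processing notes name Bowtie 0.12.8 and build mm9, and the deposited peak names begin with MACS, the name of a peak caller. The version and settings of this caller, and the input used, were not given in the sources used here. Each list holds the calls of 1 library. Every score is the authors' deposited value and was used as a rank within its list. Depth per library is unknown, since the lists hold no reads.

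H3K27ac peaks that touched or overlapped were joined across the 4 lists, and a region counted as held where a peak of that list shared 1 bp or more with it. The work used pandas 2.3.3, numpy 2.4.6, matplotlib 3.10.9 and Python 3.11.15, and interval functions were tested on simulated data. No list shared an identical peak with another list of its target. With 2 libraries per genotype and regions chosen on their calls, no test over samples was made. Shares with Smc1a carry Wilson and their differences Newcombe 95% intervals.

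The regions, comparisons and alternatives were chosen with earlier results of these data known. Named regions were the 8 longest and the 5 of highest mean WT percentile missing from each KO library, the 5 WT clusters with most such regions, and regions at the edge of the rule. Regions of the largest distances in the closing section were chosen after their values were seen. The gene lists, start sites, cell type markers, base composition and sequences that were planned need an mm9 genome or annotation and were not analysed here.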

Additional observations from a re-analysis of the deposited data

How the results depend on the processing

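Over 7 results and 19 alternatives, 46 of 76 values stayed within 1.5 times the reported one, for the number of regions, or within its 95% interval, for the rest. Comparisons with the reverse pattern, the percentile band and clusters of any libraries were chosen after seeing the data. With the upper 75% of each list 711 regions met the rule, and 159 of the 947 (16.8%) were among those that did, while 383 had kept a peak in 1 WT library, 204 in no WT library and 201 in both WT and no KO library. With equal numbers of peaks 292 of the 947 still met it, with 50% coverage 776 and with peaks within 1000 bp merged 739. Of 23 named regions, 9 to 14 still met it in these 4 settings.

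The share with a peak of the lacking library within 10000 bp (59.8%) was 52.0% with the upper 75% of scores, 49.8% with equal numbers of peaks, 76.3% with 50% coverage and 49.3% after merging; within 2000 bp it was 23.5% and within 50000 bp 90.1%. With 50% coverage the share missing from KO replicate 2 was 80.7% (69.1% as reported), the Smc1a difference from regions of all 4 libraries -3.14 points, that of regions missing from KO replicate 1 minus those missing from KO replicate 2 -8.27 and that from the reverse pattern 10.04. The Smc1a difference from regions of all 4 libraries was -1.07 points for sites within 10000 bp, -0.221 at 1000 to 3000 bp and 1.46, with the opposite sign, at a mean WT percentile of 10 to 40. That from the reverse pattern was 9.32 points with the upper 75% of scores and 14.3 for sites within 10000 bp. The cluster difference (12.1 points) was 8.84 with the upper 75%, 7.87 with equal numbers, 6.23 after merging and 17.4 at 1000 to 3000 bp.

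Leaving out 1 library at a time gave 871 to 2494 regions, with 53.6% to 61.2% within 10000 bp. The share missing from KO replicate 2 (69.1% with all) was 66.0% without WT replicate 1 and 59.1% without WT replicate 2. It has no meaning without a KO library. The Smc1a difference ran from -14.6 to -7.27 points against regions of all 4 libraries, from -5.26 to -0.153 between regions missing from KO replicates 1 and 2 and from 1.82 to 8.29 against the reverse pattern, and the cluster difference from 5.61 to 16.6. With 1 KO library left, the regions were those of both WT libraries without a peak in it. With 1 WT library left, they were held by it and by exactly 1 KO library. The reverse pattern was then held by both KO libraries and not by that WT library. The cause of these changes was not tested. No paired analysis was made, since no result comes from a test. Base composition and gene position were not run.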

Other observations

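The regions were spread over all 20 chromosomes that held regions of both WT libraries, making up 4.63% (chromosome 4) to 8.78% (chromosome 15) of those regions, with a median of 7.01%. More were missing from KO replicate 2 than from KO replicate 1 on 19 of the 20. As a share, KO replicate 2 was the lacking library most often on chromosome 17 (86.4%, 38 regions against 6 missing from KO replicate 1) and chromosome 15 (84.6%, 44 against 8). In number the excess was greatest on chromosome 2, with 61 and 23. Chromosome X had 12 missing from each KO library, and chromosome 1 had 39 and 31.

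A few regions had no peak of the lacking library for long distances. On chromosome 15 from 39743993 to 39746120 (2128 bp) the nearest peak of KO replicate 2 was 798697 bp away, with a score of 61.97 in KO replicate 1 and scores of 238.48 and 181.27 in the WT libraries. On chromosome X from 105010556 to 105012059 (1504 bp) the nearest peak of KO replicate 1 was 488204 bp away, with a score of 104.98 in KO replicate 2 and scores of 202.8 and 58.27 in the WT libraries. Neither overlapped a Smc1a site, the nearest being 50744 bp and 337824 bp away.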
